A study of Mus musculus with 8 samples.

Results

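The matrix metalloproteinases (MMPs) and their inhibitors, the tissue inhibitors of metalloproteinases (TIMPs), were followed in mouse sciatic nerve with and without injury and with and without the transcription factor c-Jun. The genes described are Mmp2, Mmp3, Mmp9, Mmp12, Mmp14, Mmp19, Timp1, Timp2, Timp3 and Timp4, 10 of 18193 genes that the array annotation names. They were chosen by family and by the probe sets the annotation maps to them, which are 24 of 45101. All 10 genes passed the filter on signal and were among the 12093 genes tested, and 23 of their 24 probe sets passed it. Adult mice had the sciatic nerve cut at the sciatic notch, and 7 days later a 10 mm piece of the distal stump and the uninjured nerve of the other side were taken. The 4 groups were control (labelled WT) uncut, control cut, mutant (labelled c-Jun KO) uncut and mutant cut, with 2 Affymetrix arrays each. Nerves of 4 or 6 animals were combined for each array, and the submitters describe both arrays of a group as independent. The labels give neither the allele nor the cells in which c-Jun is deleted. From knowledge of this mouse model, Cre removes Jun from Schwann cells, so other cells of the nerve keep the gene.

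MMPs are zinc-dependent proteases that cut collagens, laminins, other matrix proteins and cell surface proteins, and most are secreted as inactive precursors. TIMPs bind the active site of the mature enzymes and block it. In a cut peripheral nerve the matrix is remodelled while axons and myelin break down, macrophages enter and Schwann cells change to a repair state. Many MMP promoters and that of Timp1 are known targets of AP-1, the dimeric transcription factor of which c-Jun is a subunit.

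The labels name the tissue as Schwann cells, but a nerve segment is a mixture. Markers of Schwann cells (Sox10 between 10.75 and 11.30 on the log2 scale), macrophages, fibroblasts, endothelial cells, mural cells, skeletal muscle and adipocytes were all present. In such bulk samples fewer cells of a type and less RNA per cell cannot be told apart. Of the 7 macrophage markers listed, 7 rose after the cut in control and 7 in mutant nerve, beside 22.8% and 18.1% of all genes. Their mean level lay between 8.72 and 9.06 on the uncut arrays and between 10.88 and 11.10 on the cut arrays. Itgam, 1 of the 7, passed the filter only through the cut arrays, with uncut values from 5.85 to 6.45 below the array medians. The filter thus favoured its call after the cut. None of the 7 was called between genotypes in cut nerve, where 1.09% of all genes were. Some arrays stood apart in other markers. The milk protein and keratin genes Csn2, Csn3, Krt8 and Krt18 had a mean level of 5.19 and 5.48 on the control uncut arrays and between 7.37 and 10.48 on the other 6. The neutrophil marker gene S100a8 read 9.60 on control uncut replicate 1 and between 6.46 and 8.13 elsewhere. Jun itself read 9.58 and 9.70 in control uncut, 11.88 and 11.96 in control cut, 9.62 and 9.59 in mutant uncut, and 10.39 and 10.80 in mutant cut nerve. Its difference between mutant and control cut nerve was -1.33 (SE 0.14, limma adjusted p = 0.00866), with an adjusted p of 0.0631 and 0.0574 when the first or the second control cut array was dropped. On the second brightest probe set of Jun the difference was -1.19 (adjusted p = 0.0511).

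Because the study removes an AP-1 subunit, the start site regions of the genes were read for AP-1 motifs. RefSeq (build GRCm38.p6) gave a window of 300 bases, 250 before and 50 after the start site, for 7 of the 10 genes, with 2 windows for Mmp12. The AP-1 motif TGANTCA, searched on both strands, was in the Mmp3 window and in 1 of the Mmp12 windows, and in 7.81% of all 32851 windows. The variant TGAGTAA, which was added to the search after the Timp1 sequence had been read, was in the Timp1 window and in 2.68% of all windows. The windows of Mmp14, Timp2, Timp3 and Timp4 held neither set of letters, and a match describes the letters and not a bound site. The windows with a match are shown on the plus strand in lower case with the motif in capitals, at chr9:7445572-7445871 for Mmp3, chr9:7347124-7347423 for Mmp12 and chrX:20869916-20870215 for Timp1.
Mmp3: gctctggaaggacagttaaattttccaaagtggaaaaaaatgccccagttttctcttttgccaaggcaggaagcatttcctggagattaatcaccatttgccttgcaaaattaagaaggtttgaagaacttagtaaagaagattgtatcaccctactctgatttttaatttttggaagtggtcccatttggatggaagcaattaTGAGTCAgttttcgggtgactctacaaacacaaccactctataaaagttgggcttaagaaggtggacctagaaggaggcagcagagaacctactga
Mmp12: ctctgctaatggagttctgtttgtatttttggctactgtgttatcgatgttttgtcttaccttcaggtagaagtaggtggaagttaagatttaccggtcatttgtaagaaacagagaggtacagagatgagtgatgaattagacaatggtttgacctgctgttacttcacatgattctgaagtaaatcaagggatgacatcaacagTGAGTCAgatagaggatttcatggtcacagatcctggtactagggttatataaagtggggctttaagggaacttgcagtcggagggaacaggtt
Timp1: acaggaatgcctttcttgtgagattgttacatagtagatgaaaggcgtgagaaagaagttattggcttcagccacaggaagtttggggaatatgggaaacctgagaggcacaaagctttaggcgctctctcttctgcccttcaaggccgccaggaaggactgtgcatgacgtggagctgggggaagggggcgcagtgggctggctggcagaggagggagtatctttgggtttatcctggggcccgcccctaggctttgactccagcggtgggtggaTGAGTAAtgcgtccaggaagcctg
Counted with the start site as base 1, the motif begins at base -46 in Mmp3, at -44 in Mmp12 and at 27 in Timp1.

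After the cut in control nerve, 5 of the 6 MMP genes and Timp1 rose, while Timp2 and Timp3 fell, and Mmp9 and Timp4 did not pass. Timp1 rose by 3.68 on the log2 scale. The fitted change of Mmp12 was 4.57, but its uncut values lay below the array medians, so its size is not ranked. No other member changed by more than 1.79. In limma's fit over all genes with Benjamini-Hochberg adjustment, 6 of 10 members were called higher and 2 lower, where 40.3% of all genes tested were called, 22.8% higher and 17.5% lower. The median change of the 10 was 0.96 beside 0.05 for all genes. In mutant nerve 5 were called higher and 2 lower, beside 18.1% and 17.8% of all genes (36% in all), and the median was 0.65 beside 0.00. Called in mutant nerve were Mmp2, Mmp12, Mmp14, Mmp19 and Timp1 as higher and Mmp9 and Timp3 as lower. The cut and uncut arrays of a genotype did not overlap for 8 members in control nerve, as for 73.1% of all genes, and for 9 in mutant nerve, as for 71% of all genes.

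**Figure D1:**
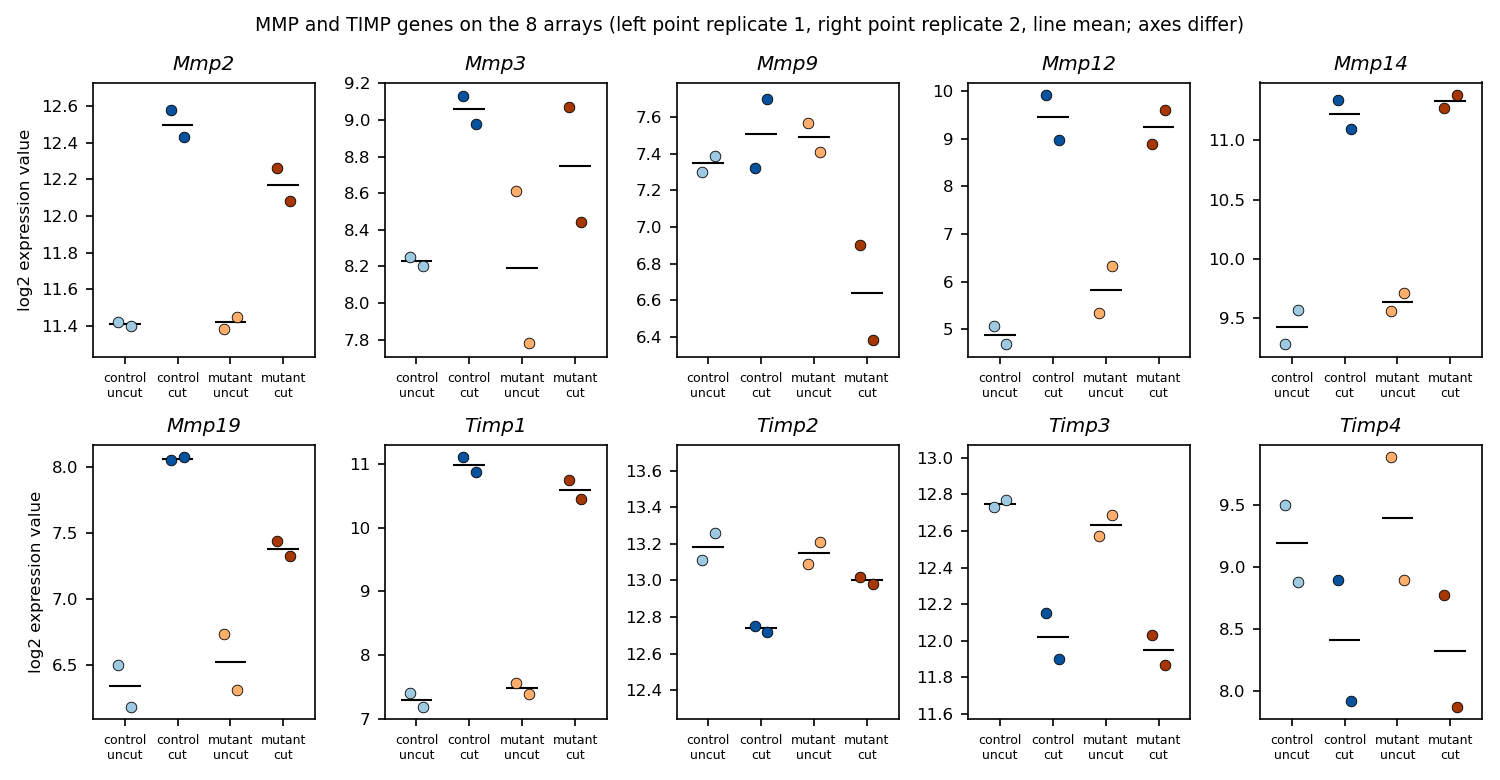
Log2 expression value (vertical axis, scaled per gene) of each MMP and TIMP gene on each of the 8 arrays, by group. Points are arrays, 2 per group, and lines are group means. Mmp12 and Timp1 stand apart between cut and uncut nerve in both genotypes, from 4.87 to 9.45 and from 7.30 to 10.98 in control nerve. The uncut values of Mmp12 lie below the array medians.

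Mmp14 encodes a membrane-anchored MMP at the cell surface that cuts the precursor of Mmp2, the gelatinase that degrades denatured and basement membrane collagen. Timp2 takes part in that step by bridging both proteins. Mmp14 read 9.28 and 9.57 on the control uncut arrays, 11.34 and 11.09 in control cut, 9.56 and 9.71 in mutant uncut, and 11.27 and 11.38 in mutant cut nerve. Cut and uncut arrays did not overlap in either genotype, and the mutant cut arrays lay on both sides of the higher control cut array. It rose by 1.79 in control nerve (SE 0.14, 3.46-fold, adjusted p = 6.59e-05) and by 1.69 in mutant nerve (SE 0.14, 3.22-fold, adjusted p = 0.000104). All 3 probe sets of Mmp14 were called higher in both genotypes when probe sets were tested on their own, with changes of 0.98 to 1.79 in control and 1.12 to 1.73 in mutant nerve.

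Mmp2 read 11.42 and 11.40 in control uncut, 12.58 and 12.43 in control cut, 11.38 and 11.45 in mutant uncut, and 12.26 and 12.08 in mutant cut nerve. The order of levels was uncut of either genotype, mutant cut, then control cut, with no overlap between the cut groups. Mmp2 rose by 1.09 in control nerve (SE 0.11, 2.13-fold, adjusted p = 0.000196) and by 0.75 in mutant nerve (SE 0.11, 1.68-fold, adjusted p = 0.0014). Its second probe set gave 1.13 and 0.77. Timp2 is the counterpart of this pair among the inhibitors and went the other way in control nerve, as described below with the TIMPs.

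Mmp12 encodes macrophage elastase, which cuts elastin and many other proteins. It read 5.07 and 4.68 in control uncut, 9.92 and 8.97 in control cut, 5.34 and 6.33 in mutant uncut, and 8.88 and 9.60 in mutant cut nerve. All 4 uncut arrays lay below the median of their array (6.59 to 6.65 over the 8 arrays), and control uncut replicate 2 below the 25th percentile. It passed the filter only through the 4 cut arrays, and the values carry no detection calls, so its uncut level is not shown to be above background and no fold or rank is given. The fitted change was 4.57 in control nerve (SE 0.42, adjusted p = 0.000156) and 3.40 in mutant nerve (SE 0.42, adjusted p = 0.000756), each measured against that dim level. The macrophage markers given above rose on the same arrays, and their part in the change of Mmp12 was not tested.

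Mmp3 encodes stromelysin, which cuts proteoglycans and laminin and activates other MMP precursors. It read 8.25 and 8.20 in control uncut, 9.13 and 8.98 in control cut, 8.61 and 7.78 in mutant uncut, and 9.07 and 8.44 in mutant cut nerve. The control groups did not overlap, while the mutant arrays spread widely and their groups did. Its rise in control nerve was 0.83 (SE 0.28, adjusted p = 0.0495). That call was lost without any 1 of the 4 control arrays, with adjusted p from 0.11 without control cut replicate 2 to 0.168 without control cut replicate 1, and 0.136 and 0.155 without control uncut replicate 1 and 2. With no filter on signal the adjusted p was 0.0544, and with a trended and robust variance 0.0615. The call was also lost where other genes were read from their second brightest probe set. In mutant nerve the change was 0.56 (95% interval -0.10 to 1.21, adjusted p = 0.164), and it passed only without mutant uncut replicate 1 (0.97, adjusted p = 0.0292).

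Mmp3 and Mmp12 lie in a cluster of MMP genes on chromosome 9, with 9 other family members within 1 Mb of Mmp12 in the GRCm38.p6 gene table, Mmp3 among them. Of the neighbours with a probe set, Mmp8, the neutrophil collagenase, passed the filter and rose from 5.66 and 5.04 to 7.11 and 6.85 in control nerve (adjusted p = 0.00143). In mutant nerve it went from 4.87 and 5.37 to 7.15 and 6.94 (adjusted p = 0.00078). Its 4 uncut values lay below the array medians and it passed the filter only through the cut arrays, so no size is given for the change. Mmp1a, Mmp1b, Mmp7, Mmp10, Mmp13 and Mmp20 did not pass the filter. Mmp13, collagenase 3, read 3.24 and 3.51 in control uncut and 4.72 and 3.80 in control cut nerve, and Mmp10 between 5.79 and 5.97 on all arrays.

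Mmp19 encodes a secreted MMP that cuts basement membrane proteins. It read 6.50 and 6.18 in control uncut, 8.05 and 8.07 in control cut, 6.73 and 6.31 in mutant uncut, and 7.44 and 7.32 in mutant cut nerve. Mutant cut nerve thus lay between uncut nerve and control cut nerve, with no overlap on either side. Mmp19 rose by 1.71 in control nerve (SE 0.16, adjusted p = 0.000192) and by 0.86 in mutant nerve (SE 0.16, adjusted p = 0.00576). Of its uncut values only that of mutant uncut replicate 1 lay above the median of its array (6.63). Both changes are thus measured against a dim level, and no fold is given. The second probe set of Mmp19 kept the order of the groups. It passed the filter only through the 4 cut arrays, with uncut values from 5.45 to 6.06 below the array medians. No size is therefore given for its change.

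Mmp9 encodes the second gelatinase, an enzyme of macrophages, neutrophils and injured tissue. It read 7.30 and 7.39 in control uncut, 7.32 and 7.70 in control cut, 7.57 and 7.41 in mutant uncut, and 6.90 and 6.38 in mutant cut nerve. Both mutant cut arrays were lower than the other 6, which overlapped in part. The change in control nerve was 0.16 (95% interval -0.29 to 0.61, adjusted p = 0.54), and 0.12 without the control uncut array of high S100a8. In mutant nerve Mmp9 fell by 0.85 (SE 0.19, adjusted p = 0.0114). That call was lost without mutant cut replicate 2 (-0.59, adjusted p = 0.0578) or mutant uncut replicate 1 (-0.77, adjusted p = 0.0589), and on the second probe set (-0.35, adjusted p = 0.326).

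**Figure D2:**
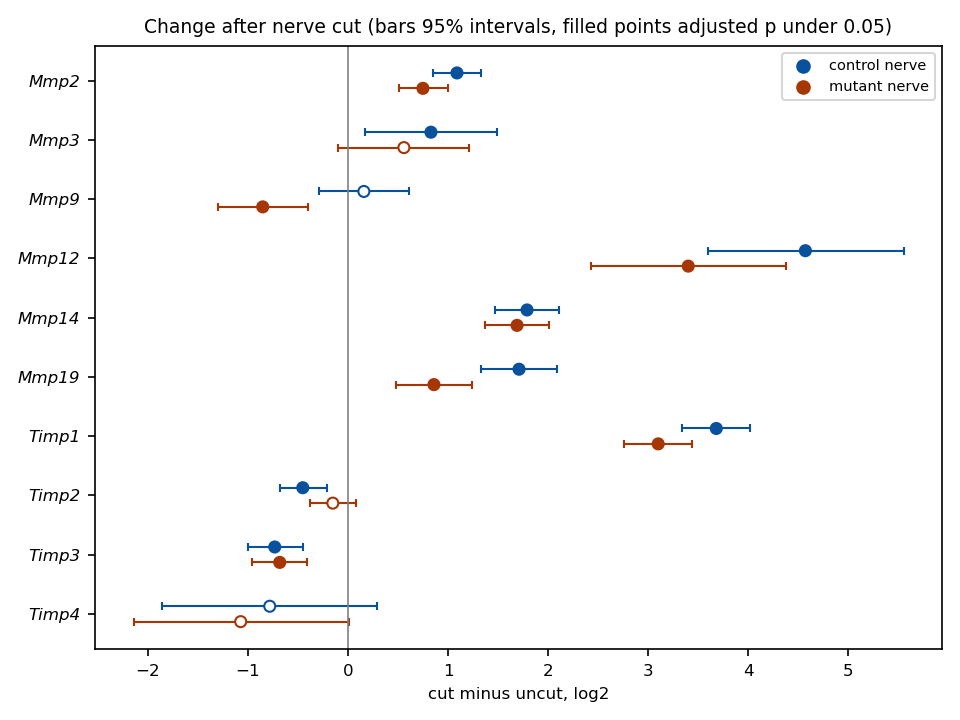
Change after nerve cut (horizontal axis, cut minus uncut, log2) of each gene in control and mutant nerve. Points are limma estimates from 2 arrays per group, bars their 95% intervals, and filled points have adjusted p under 0.05. Timp1 and all MMP genes except Mmp9 and Mmp3 lie above 0 in both genotypes with filled points, and Timp3 lies below 0 in both.

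Among the inhibitors Timp1, a secreted protein induced by cytokines and injury, rose. It read 7.41 and 7.19 in control uncut, 11.10 and 10.87 in control cut, 7.57 and 7.40 in mutant uncut, and 10.74 and 10.45 in mutant cut nerve. Uncut groups overlapped, and both mutant cut arrays lay below both control cut arrays. Timp1 rose by 3.68 in control nerve (SE 0.15, 12.9-fold, adjusted p = 3.83e-06) and by 3.10 in mutant nerve (SE 0.15, 8.60-fold, adjusted p = 1.06e-05).

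Timp3, the TIMP that stays bound to the matrix and also inhibits ADAM proteases, fell. It read 12.73 and 12.77 in control uncut, 12.15 and 11.90 in control cut, 12.57 and 12.69 in mutant uncut, and 12.03 and 11.87 in mutant cut nerve. The cut arrays of both genotypes overlapped and lay below all 4 uncut arrays. Timp3 fell by 0.73 in control nerve (SE 0.12, adjusted p = 0.00237) and by 0.68 in mutant nerve (SE 0.12, adjusted p = 0.00381). Its 4 probe sets all had negative changes, from -0.78 to -0.61 in control and from -0.78 to -0.55 in mutant nerve, and for 1 of them the adjusted p was 0.125 and 0.17.

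Timp2 read 13.11 and 13.26 in control uncut, 12.75 and 12.72 in control cut, 13.09 and 13.21 in mutant uncut, and 13.02 and 12.98 in mutant cut nerve. Control cut nerve was the lowest group and overlapped no other. Timp2 fell by 0.45 in control nerve (SE 0.10, adjusted p = 0.0101), a call lost without control uncut replicate 2 (-0.37, adjusted p = 0.0684) and on the second brightest probe set (-0.33, adjusted p = 0.0678). In mutant nerve the change was -0.15 (95% interval -0.38 to 0.08, adjusted p = 0.279). The probe sets of Timp2 disagreed. Of the 5 that passed the filter, 4 had changes from -0.61 to -0.33 in control nerve, and the fifth had 0.30 in control and 0.43 in mutant nerve (adjusted p = 0.136 and 0.0561). The sixth probe set read between 4.24 and 4.88, below the 25th percentile on all arrays, and was not tested.

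**Figure D3:**
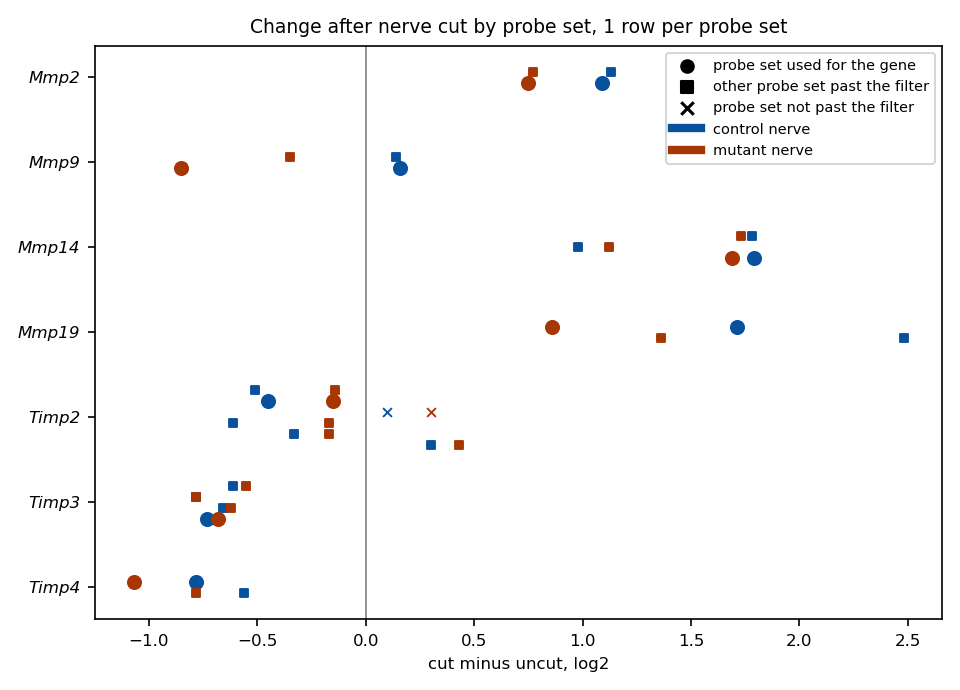
Change after nerve cut (horizontal axis, cut minus uncut, log2) of every probe set of the 7 genes that have several, in control and mutant nerve. Circles are the probe sets used for the gene, squares others past the filter and crosses 1 probe set not past it. The 3 probe sets of Mmp14 and the 4 of Timp3 each lie on 1 side of 0, while those of Timp2 lie on both.

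Timp4 is an inhibitor known from heart, skeletal muscle and fat. It read 9.50 and 8.88 in control uncut, 8.89 and 7.92 in control cut, 9.88 and 8.89 in mutant uncut, and 8.77 and 7.87 in mutant cut nerve. The change was -0.78 in control nerve (95% interval -1.86 to 0.29, adjusted p = 0.212) and -1.07 in mutant nerve (95% interval -2.14 to 0.01, adjusted p = 0.11), and neither passed in the fit without the replicate number as a block. In each group the array numbered 1 was the higher, by 0.62 to 1, a gap that at most 2.26% of genes exceeded in size in any group. The adipocyte hormone genes Lep and Adipoq had the same order in all 4 groups, with gaps of 1.14 to 1.67 and 0.27 to 0.92, and Retn did not, with gaps of -0.50 to 1.60. The mean of these 3 markers lay between 11.50 and 12.18 on uncut and between 9.73 and 10.86 on cut arrays. In each genotype 2 of 3 were called lower after the cut, beside 17.5% of all genes in control and 17.8% in mutant nerve. Skeletal muscle markers moved the other way, with 4 of 5 called higher after the cut in control nerve and 5 of 5 in mutant nerve. Of all genes 22.8% and 18.1% were called higher. The mean level of the muscle markers was 11.59 to 12.56 on uncut and 13.37 to 14.09 on cut arrays. The part of either marker list in the levels of Timp4 was not tested.

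**Figure D4:**
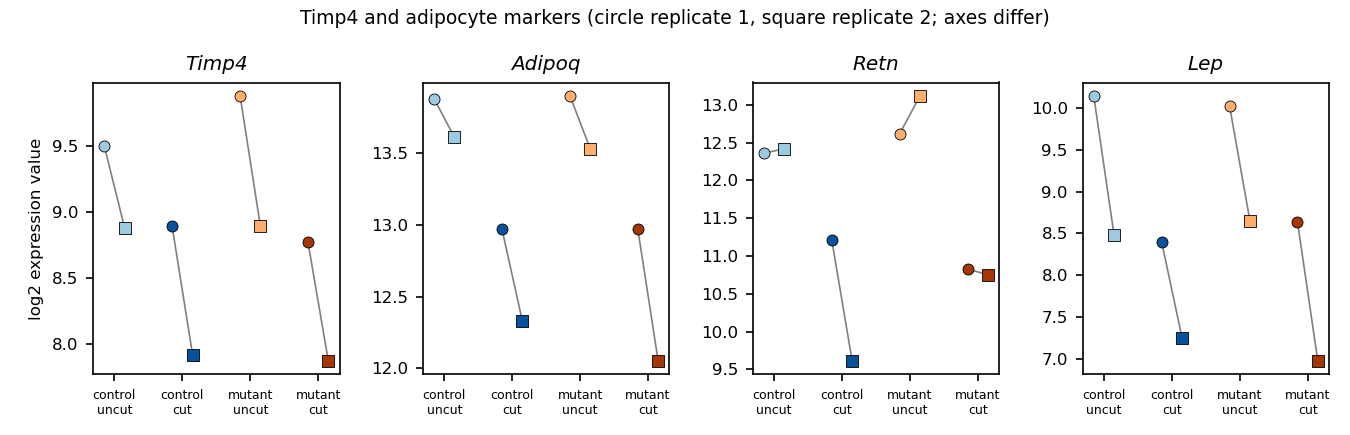
Log2 expression value (vertical axis, scaled per gene) of Timp4 and the adipocyte markers Adipoq, Retn and Lep on each array. Circles are the arrays numbered 1 and squares those numbered 2 of each group, joined by a line. Timp4, Adipoq and Lep are higher on the array numbered 1 in all 4 groups, by 0.62 to 1 for Timp4.

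By position, 3 of the 4 TIMP genes lie inside synapsin genes in the GRCm38.p6 gene table. Timp1 lies within Syn1, Timp4 within Syn2 and Timp3 within Syn3. None of the 10 synapsin probe sets passed the filter. Syn1 read between 6.02 and 6.41 on the 8 arrays and Syn3 at most 6.71, while the mean of Timp1 went from 7.30 to 10.98 in control nerve.

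The central question of the design is what c-Jun contributes to the injured nerve. In cut nerve no MMP or TIMP member was called between mutant and control, where limma called 1.09% of all genes (0.38% higher and 0.711% lower). At an unadjusted p under 0.05, 4 members were lower and 1 higher, beside 5.07% and 3.54% of all genes (8.61% in all). The same 5 were those whose mutant and control cut arrays did not overlap, which held for 34.6% of all genes, 20.1% lower and 14.5% higher. The median difference of the 10 was -0.26 beside -0.01 for all genes. Mmp9 was at -0.87 (95% interval -1.31 to -0.42, limma adjusted p = 0.117), Mmp19 at -0.67 (95% interval -1.06 to -0.29, limma adjusted p = 0.16) and Timp1 at -0.39 (95% interval -0.73 to -0.05, limma adjusted p = 0.475). Mmp2 was at -0.33 (limma adjusted p = 0.338) and Timp2 at 0.26 (limma adjusted p = 0.488). The second probe set of Mmp9 gave -0.55 (adjusted p = 0.55 among probe sets) and that of Mmp19 -0.84 (adjusted p = 0.105).

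Of the cell type markers in cut nerve, 0 of 7 for macrophages, 0 of 4 for Schwann cells and 1 of 6 for fibroblasts were called between genotypes. The last was Thy1 (-0.81, adjusted p = 0.016). Since 1.09% of all genes were called, counts of 0 in lists this short do not show equal levels. The Schwann cell marker Ngfr stood at -0.70 (95% interval -1.11 to -0.29, limma adjusted p = 0.176), and 1 of the 4 had a positive difference. The part of the markers in the differences of the members was not tested.

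For the other 5 genes the estimates in cut nerve were closer to 0 or wide. Mmp14 stood at 0.11 with a 95% interval of -0.21 to 0.43 and Timp3 at -0.08 with -0.35 to 0.20, so a difference of 0.5 lay outside both intervals. Mmp12 stood at -0.21 with -1.18 to 0.77, Mmp3 at -0.30 with -0.96 to 0.35, and Timp4 at -0.09 with -1.16 to 0.98, which do not exclude differences of that size.

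In uncut nerve no member was called, nor was any other of the 12093 genes (0% called by limma). No member had an unadjusted p under 0.05 either, beside 2.66% of all genes. Mmp12 stood at 0.96 (95% interval -0.01 to 1.94, adjusted p = 1), with 5.34 and 6.33 in mutant against 5.07 and 4.68 in control nerve. These values all lay below the array medians and are not shown to be above background, so the estimate is not ranked. The estimate was 0.47 without mutant uncut replicate 2. For the other 9 genes the estimates lay between -0.12 (Timp3) and 0.21 (Mmp14).

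The difference between the injury effects of mutant and control nerve was called for no member, where limma called 0.165% of all genes. At an unadjusted p under 0.05, 3 members had a lower injury effect in the mutant, beside 4.04% of all genes and 6.04% in either direction. These were Mmp9 (-1.01, 95% interval -1.64 to -0.38, limma adjusted p = 0.349), Mmp19 (-0.85, 95% interval -1.39 to -0.31, limma adjusted p = 0.367) and Timp1 (-0.58, 95% interval -1.06 to -0.10, limma adjusted p = 0.642). So the fall of Mmp9, called in mutant nerve and not in control nerve, was not shown to differ between genotypes. The comparisons share arrays with each other, and their values for a gene are not independent.

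**Figure D5:**
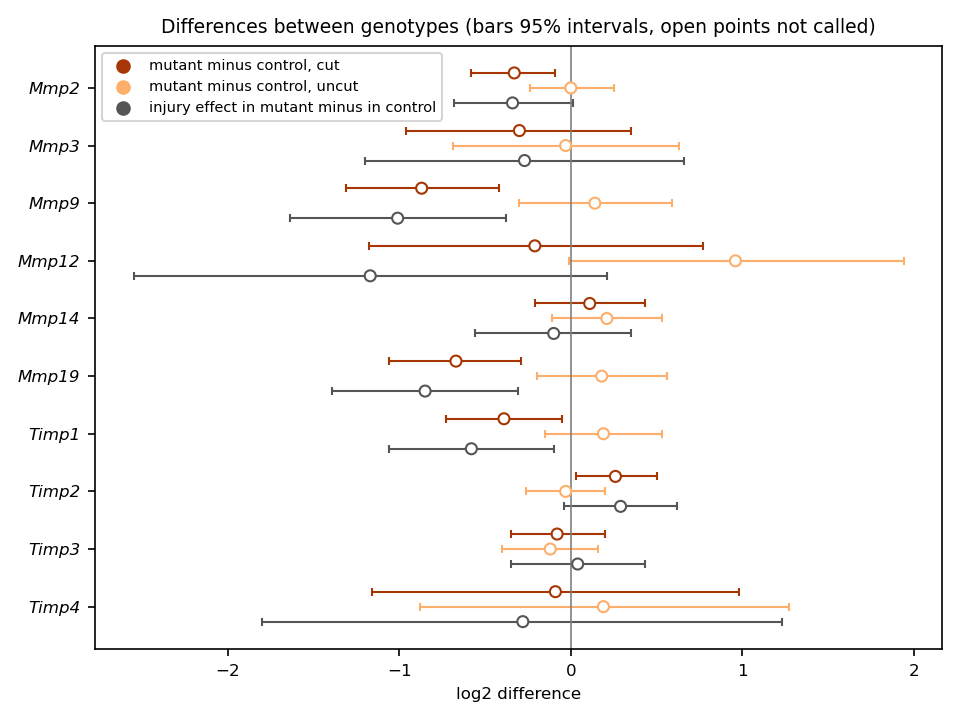
Differences between genotypes (horizontal axis, log2) of each gene in cut nerve, in uncut nerve and in the injury effect. Points are limma estimates from 2 arrays per group and bars their 95% intervals, and open points were not called. The intervals of Mmp9, Mmp19 and Timp1 lie below 0 for cut nerve and for the injury effect before adjustment over genes.

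Other MMPs gave a wider view of the family. Of 17 further MMP genes listed, 12 had a probe set assigned to them alone, and 5 passed the filter. After the cut 3 of these rose in control nerve and 3 in mutant nerve, beside 22.8% and 18.1% of all genes. They were Mmp8, Mmp23 (0.77 in control, adjusted p = 0.00736) and Mmp17, an MMP anchored in the membrane by a lipid tail. Mmp8 passed the filter only through the cut arrays, as given above, so the filter favoured its place in both counts. Mmp17 read 7.36 and 7.36 in control uncut, 10.10 and 9.43 in control cut, 7.31 and 7.41 in mutant uncut, and 8.49 and 8.41 in mutant cut nerve. It was the only 1 of these 5 called between genotypes, at -1.31 in cut nerve (SE 0.20, adjusted p = 0.0269). Its call remained in 1 of 8 fits with 1 array left out, that without control cut replicate 2 (adjusted p = 0.0117), and the adjusted p was up to 0.14 in the others. The difference of its injury effects was -1.30 (adjusted p = 0.202).

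The counts for the lists that follow stand beside the shares of all genes given above, 22.8% called higher and 17.5% lower in control nerve and 18.1% and 17.8% in mutant nerve. Of 16 measured regulators of MMP activity 8 rose and 2 fell after the cut in control nerve, and 6 rose and 2 fell in mutant nerve (medians 0.52 and 0.17), so the share that fell was no higher than among all genes. Furin, the convertase that activates Mmp14 and other precursors, rose by 1.02 (adjusted p = 0.000231). Plat and Plaur, tissue plasminogen activator and the urokinase receptor of the plasmin system that activates MMP precursors, rose by 1.32 and 1.28. Cd44, which holds Mmp9 and Mmp14 at the cell surface, rose by 2.12, and Thbs2 by 1.94 (adjusted p = 0.00315). The inhibitors of the list did not move in 1 direction. The protease inhibitor A2m rose by 0.77 (adjusted p = 0.00995), and its change in mutant nerve was 0.14 (adjusted p = 0.561). Reck, a membrane-anchored inhibitor of Mmp2, Mmp9 and Mmp14, fell by 1.09 (adjusted p = 0.00231) and in mutant nerve by 0.72 (adjusted p = 0.0167). Its call in mutant nerve was lost without mutant uncut replicate 1 (adjusted p = 0.0786) or 2 (0.0502) or mutant cut replicate 2 (-0.44, adjusted p = 0.0701). In cut nerve 1 of the 16 was called between genotypes, Plat at -0.87 (adjusted p = 0.0163).

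Among 22 measured matrix and myelin substrates of MMPs 10 rose and 4 fell in control nerve (median 0.38), and 11 rose and 1 fell in mutant nerve (median 0.37). The share that fell was close to that among all genes in control nerve and below it in mutant nerve. The matrix protein Tnc rose by 5.55, Col18a1 by 2.62 and Col1a1 by 1.61 in control nerve, and the myelin protein gene Mbp fell by 2.38. The second brightest probe set of Col1a1 gave 0.41 (adjusted p = 0.0535). Between genotypes in cut nerve 1 was higher, Mbp at 0.99 (adjusted p = 0.0212), and 2 were lower, Tnc at -1.36 (adjusted p = 0.0163) and Vcan at -0.70 (adjusted p = 0.0269). Of 8 measured AP-1 genes 7 rose in control and 6 in mutant nerve, among them Atf3 (3.43 in control), Jun (2.28) and Fos (1.54). Fosl1, counted in both, passed the filter only through the cut arrays, with uncut values from 5.87 to 6.02 below the array medians. The filter thus favoured its calls. In cut nerve Jun and Fosl2 (-0.59, adjusted p = 0.0361) were the 2 called lower in the mutant. The Fosl2 difference was -0.41 (adjusted p = 0.152) with the mean of its probe sets and -0.22 (adjusted p = 0.903) on the second brightest, where its change after injury in control nerve was 0.33 against 1.51.

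Of 10 measured related metalloproteases, the ADAM, ADAMTS and tolloid genes, 6 rose in control nerve, with Adamts4 at 2.22 and Adam8 at 2.20, and 4 rose and 2 fell in mutant nerve. Of the uncut values of Adamts4 only that of mutant uncut replicate 2 (6.64) lay above the median of its array (6.63). The change of Adamts4 is thus measured against a dim level. In cut nerve Adamts5 (-0.96, adjusted p = 0.0236) and Adamts1 (-0.58, adjusted p = 0.0307) were lower in the mutant. The calls between genotypes of these genes rested on few arrays. With only the 4 cut arrays in the fit, none of Jun, Fosl2, Mmp17, Plat, Tnc, Mbp, Vcan, Adamts1 and Adamts5 was called in cut nerve (adjusted p from 0.058 for Jun to 0.158 for Fosl2). Vcan was also lost with the mean of its probe sets (-0.57, adjusted p = 0.0557) and on the second brightest (-0.63, adjusted p = 0.124). With 1 of the 8 arrays left out in turn, Tnc was called in 5 fits, Plat and Mbp in 4, Adamts5 in 3, Vcan in 2, and Fosl2 and Adamts1 in 0. Tnc was lost without either control cut array or mutant cut replicate 1 (adjusted p up to 0.106), and Plat without any 1 of the 4 cut arrays (up to 0.112). Mbp was lost without control cut replicate 1, mutant cut replicate 1 or either control uncut array (up to 0.115), and Adamts5 without these or control cut replicate 2 (up to 0.131). Vcan was lost in all fits except those without a mutant uncut array (up to 0.162), Fosl2 reached 0.206 and Adamts1 0.182.

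For each member the 3 genes with the most similar pattern over the 8 arrays were found, by the root mean square difference of log2 values after centring each gene. For Timp1 they were Dclk1 (0.17), Lgals3 (0.20), the lectin galectin-3, and Prc1 (0.21), against a spread of Timp1 itself of 1.83 (SD). For Mmp12 they were Nuf2 (0.47), Prc1 (0.53) and Bub1 (0.53), which all act in cell division, against a SD of 2.21. For Mmp14 they included Mcm6 (0.10), a subunit of the replication helicase, and for Mmp2 Chd3 (0.05). For Mmp19 the nearest were Card19 and Specc1 (0.11 each), and for Mmp9 Mamdc2 (0.08), whose change was 0.03 in control and -0.67 in mutant nerve. For Timp4 they were Kcna5 (0.10), Adgrg2 (0.15) and Cd209b (0.15). Such likeness over 8 arrays of 4 groups mainly restates the injury and genotype pattern of each gene.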

How the data were processed

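RNA of 8 nerve pools was measured on 1-colour Affymetrix arrays. The authors deposited 1 log2 value per probe set and array, with RMA and affy named in the submitters' processing notes without versions. RMA equalises arrays and compresses dim differences. Array medians lay between 6.59 and 6.65, and their number limits the precision.

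A probe set was kept if above its array's median on at least 2 arrays, and each gene took its brightest kept probe set. Only the 34945 probe sets with 1 symbol, controls aside, were assigned to genes (932 had several and 9224 none). Means per group were fitted with limma 3.58.1 in R 4.3.3 over all 12093 genes and 8 arrays (4 residual and 3.59 prior degrees of freedom), two-sided, with Benjamini-Hochberg adjustment and a threshold of 0.05. The p-values measure the spread between pools, not between mice. In simulated data of 12093 genes, 50 were changed by each size. The fit for genotype in cut nerve recovered 20% of those changed by 0.5 and 98% of those changed by 1 on the log2 scale, and for the interaction 4% and 84%. The simulated noise was normal and independent between arrays, so it lacks the correlation of same-numbered arrays given below.

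The members and gene lists were chosen with earlier results of these data known. The genes named are the members, Jun, up to 4 called genes per list with the largest change after injury in control nerve or between genotypes in cut nerve, and the 3 nearest genes of a member. A2m, Furin, Reck, Krt8, Mmp10, Mmp13 and the synapsin genes were named outside that rule, after their values were seen, and marker genes from the lists of cell type markers. Alternatives were no filter, the 75th percentile as filter, averaged probe sets, median centring, a trended and robust variance, only the arrays compared, the replicate number as a block, each array left out and, added after the data were seen, the second brightest probe set.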

Additional observations from a re-analysis of the deposited data

Results flagged for a closer look

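The injury effect of Adamts1, a secreted protease that cuts proteoglycans, differed between genotypes by -1.13 (limma adjusted p = 0.0365). Adamts1 read 9.61 and 9.68 in control uncut, 10.79 and 10.78 in control cut, and 10.17 and 10.23 in both mutant groups. The call remained in 1 of 8 fits with 1 array left out, that without mutant cut replicate 2 (adjusted p = 0.0494), and the adjusted p was up to 0.163 in the others.

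The injury effect of the epithelial keratin gene Krt8 differed by -3.24 (limma adjusted p = 0.0365). Both control uncut values of Krt8 lay below the median of their array (6.61 and 6.64). The milk protein and keratin genes together had a low mean on those arrays, as given above, though Csn2 was also low on mutant cut replicate 1 (3.69). Krt8 read 5.73 and 6.13 in control uncut, 9.18 and 9.92 in control cut, 8.54 and 8.48 in mutant uncut, and 8.63 and 9.17 in mutant cut nerve. Its call also remained in 1 of 8 such fits, that without mutant cut replicate 2 (adjusted p = 0.0285), with adjusted p up to 0.163 in the others, and was lost on the second brightest probe set (-3.38, adjusted p = 0.0806).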

How the results depend on the processing

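The number of members called kept within 1.5 times its value under every alternative run. It lay between 6 and 9 for injury in control nerve and between 5 and 8 for injury in mutant nerve, and was 0 for both genotype comparisons and the interaction throughout. The filter at the 75th percentile left 8 of 10 members to test. The uncut nerves were contralateral to cut ones, but the labels do not say that same-numbered pools came from the same mice, so the numbers were not used as pairs. The deviations of same-numbered arrays from the group means correlated with r between 0.0226 and 0.34 across genes. With the replicate block 9 members were called in control and 8 in mutant nerve, the added gene being Timp4 (-0.78, adjusted p = 0.00202, and -1.07, adjusted p = 0.000676). The block changed no other member's call.

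Some small differences changed sign. In uncut nerve these were Mmp2 with median centring (-0.01) and, on the second brightest probe set, Mmp9 (-0.07) and Timp2 (0.01). With 1 array left out, uncut nerve gave -0.03 to 0.04 for Mmp2, -0.44 to 0.38 for Mmp3, -0.03 to 0.39 for Mmp19, -0.11 to 0.05 for Timp2 and -0.30 to 0.69 for Timp4. Cut nerve gave -0.62 to 0.01 for Mmp3, -0.69 to 0.27 for Mmp12, -0.01 to 0.23 for Mmp14, -0.20 to 0.05 for Timp3 and -0.57 to 0.40 for Timp4. The interaction gave -0.68 to 0.14 for Mmp3, -0.25 to 0.04 for Mmp14, -0.08 to 0.17 for Timp3 and -0.78 to 0.22 for Timp4, and injury in control nerve -0.03 to 0.35 for Mmp9. The cause was not tested.

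Over all genes, genotype in cut nerve was called for 132 genes, for 13 to 111 with 1 array left out and for 31 with only the arrays compared. The interaction was called for 20, for 0 to 45 with 1 array left out, and for 33 with no filter, 33 with the mean of probe sets and 31 with a trended and robust variance, and 11 with the 75th percentile filter. Genotype in uncut nerve was called for 0 genes, and for 9 with only the arrays compared. Injury in mutant nerve was called for 4348, and for 2734 when mutant cut replicate 2 was dropped and 2876 when mutant uncut replicate 2 was.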
